A study of Homo sapiens with 10 samples.

Results

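A run of neighbouring genes on the long arm of chromosome 8, bands 8q21 to q22, from LRRCC1 to INTS8, was described across 10 expression arrays of human lung cells that differ in their response to discodermolide. The members were chosen by their measured levels: on these same arrays, this neighbourhood was the lowest in AD32 cells relative to A549 cells in DMSO. The difference between these 2 groups is therefore given below as a description of the members, with no test. Of 34 listed genes, 31 had a probe set of their own among the 18279 genes measured, and SLC26A7, TRIQK and ESRP1 were not analysed here. AD32 (n = 3) is labelled resistant and was cultured in 32 nM discodermolide, a marine natural product and microtubule-stabilising agent. The AD32 4E-BP1 sample (n = 1) is labelled sensitive, received 0.01% DMSO and carries the name of 4E-BP1, the EIF4EBP1 product, which holds back cap-dependent translation. A549, a human lung adenocarcinoma line, was studied in 32 nM discodermolide, where it is labelled senescent (n = 2), and in 0.01% DMSO, where it is labelled sensitive (n = 4). The labels give neither the number of clones behind each line nor how EIF4EBP1 was introduced. AD32 was sampled in the drug and A549 in DMSO was not, so line and drug cannot be told apart between those groups.

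Genes that lie side by side on a chromosome need share no function, and the members work in unrelated pathways. NBN and RAD54B act in the repair of DNA double-strand breaks, LRRCC1 is a centrosome protein, and E2F5 is a repressor of the E2F family that regulates cell cycle genes. CA1, CA2, CA3 and CA13 form a cluster of cytosolic carbonic anhydrases, enzymes that interconvert carbon dioxide and bicarbonate. What neighbouring genes do share is their copy number and part of their chromatin, neither of which these arrays measured.

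Levels are log2 signals as deposited. A difference of 1 is a 2-fold ratio of signal. The lower quartile of the arrays lay between 4.77 and 4.94, and signal above background was not shown for low levels. A member was called low where its mean over all 10 arrays was below 5.78, a limit that 12186 of 18279 genes passed. Of the members, 24 passed it and 7 did not. In bulk RNA, less of a transcript per cell and fewer cells that express it cannot be told apart. The epithelial keratins KRT8 and KRT18 were high on every array (at least 12.67 and 13.03), while EPCAM (3.30 to 3.87) was low on every array. Leukocyte markers were mixed, with PTPRC (2.77 to 3.20) and CD3E (4.62 to 5.25) low and CD68 well above the limit (8.34 to 10.71). Fibroblast markers were mixed too, with DCN low (2.88 to 3.22) and COL1A1 above the limit (7.69 to 8.16). Whether such levels reflect other cell types was not tested. In AD32 against A549 in DMSO, 2 of 7 simple-epithelium markers (KRT7 and CDH1) rose, 1 of 7 fibroblast markers fell, and 0 of 5 endothelial and 0 of 5 leukocyte markers were called. In A549 in discodermolide, KRT7 was 7.44 and 7.45 and CDH1 was 10.01 and 9.67. CDH1 was 9.89, 10.40 and 9.81 in AD32 and 9.53, 8.46, 8.83 and 8.87 in A549 in DMSO. The call of CDH1 was lost in 11 of 18 alternatives, among them without AD32 replicate 1 or 2, any of A549 DMSO replicates 2 to 4 or either discodermolide array (adjusted p from limma up to 0.141).

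Some arrays stood apart from their group. EIF4EBP1 was 11.61 on the AD32 4E-BP1 array, against 8.93, 7.99 and 8.63 in AD32. Across all genes, the AD32 4E-BP1 array correlated at r = 0.932, 0.939 and 0.979 with AD32 replicates 1, 2 and 3, at 0.970 and 0.969 with A549 in discodermolide, and at 0.957, 0.995, 0.988 and 0.988 with A549 DMSO replicates 1 to 4. Its closest arrays were thus A549 DMSO replicates 2 to 4, while AD32 replicate 3 was closer to it than A549 DMSO replicate 1 or the discodermolide arrays. KRT7, a simple-epithelial keratin, was 7.35 on it, 11.84, 11.74 and 11.76 in AD32, and 7.02, 7.40, 7.00 and 7.12 in A549 in DMSO. Results on this array are given apart, and no description of AD32 against A549 rests on it. The mean of 20 cell cycle genes was 5.14, 6.19 and 9.62 on AD32 replicates 1, 2 and 3, and 6.73, 9.87, 10.00 and 9.97 on A549 DMSO replicates 1 to 4. It was 9.82 on the AD32 4E-BP1 array and 6.58 and 6.81 in A549 in discodermolide.

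Among the 24 members that were not low, 23 had a lower mean in AD32 than in A549 in DMSO and PDP1 had a higher one. Their mean level was 7.38, 7.65 and 7.64 on the AD32 arrays, 8.37 on the AD32 4E-BP1 array, 8.48 and 8.54 in A549 in discodermolide, and 8.19, 8.65, 8.88 and 8.84 in A549 in DMSO. All 3 AD32 arrays thus lay below all 7 others. The median log2 difference of AD32 from A549 in DMSO was -1.08 over these 24 members and -0.82 over all 31, beside 0.01 over all genes. Lower values at least 2-fold in size were seen for 14 members. In 13 members all 3 AD32 arrays lay below all 4 A549 DMSO arrays, as did 6.48% of all genes, and in the same number they also lay below both discodermolide arrays, as did 4.95% of all genes. These counts follow from how the members were chosen and show only how many carry the low neighbourhood.

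**Figure D1:**
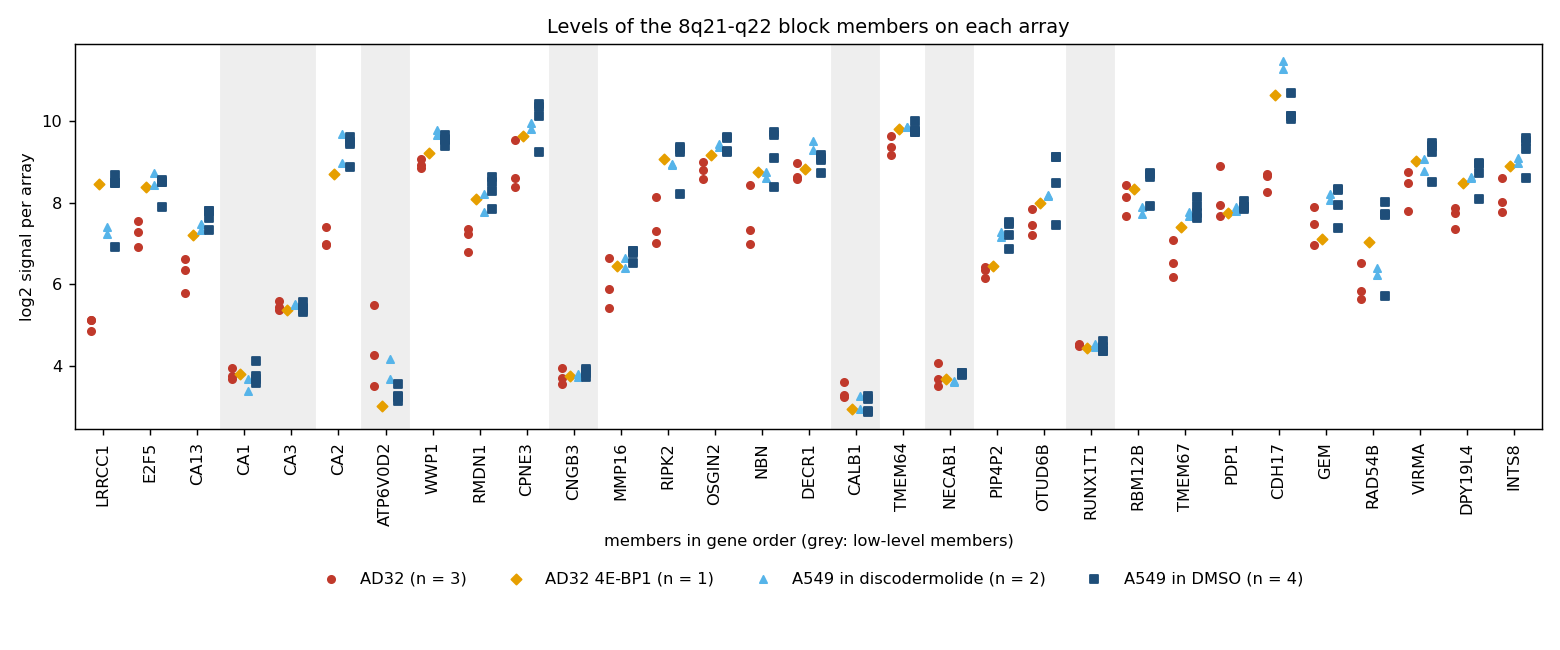
Log2 signal of the 31 measured members in gene order, with a point per array for AD32, AD32 4E-BP1, A549 in discodermolide and A549 in DMSO, and the 7 low members shaded in grey. AD32 lies below the other groups for LRRCC1, CA2 and CDH17, while the low members lie at or below 5.60 on every array.

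LRRCC1, a coiled-coil protein of the centrosome, showed the widest gap of all members. It was 5.13, 4.86 and 5.13 in AD32, 8.47 on the AD32 4E-BP1 array, 7.23 and 7.42 in A549 in discodermolide, and 6.91, 8.69, 8.49 and 8.48 in A549 in DMSO. The AD32 arrays were close to each other and near the lower quartile, and A549 DMSO replicate 1 lay apart from its group but still well above them. The mean in AD32 was 8.62-fold lower than in A549 in DMSO (5.04 ± 0.16, SD, n = 3, against 8.15 ± 0.83, SD, n = 4). E2F5, next to LRRCC1 in the block, was 6.91, 7.55 and 7.29 in AD32 and 7.91, 8.50, 8.55 and 8.50 in A549 in DMSO. Its groups did not overlap, and its AD32 mean was 2.17-fold lower. RMDN1, of a family named for the regulation of microtubule dynamics, was 6.78, 7.23 and 7.35 in AD32 and 7.86, 8.28, 8.64 and 8.50 in A549 in DMSO, again without overlap (2.30-fold lower).

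The double-strand break repair genes were lower in AD32 on average, but their groups overlapped. NBN encodes nibrin, the subunit of the MRE11-RAD50-NBN complex that recruits the kinase ATM. It was 6.99, 7.33 and 8.42 in AD32 and 8.40, 9.09, 9.73 and 9.67 in A549 in DMSO. AD32 replicate 3 thus lay just above A549 DMSO replicate 1, and the means differed 3.12-fold (7.58 ± 0.75, SD, n = 3, against 9.22 ± 0.62, SD, n = 4). RAD54B, a DNA translocase of homologous recombination, was 5.64, 5.83 and 6.51 in AD32 and 5.73, 7.70, 8.01 and 7.73 in A549 in DMSO. It was also low in A549 in discodermolide (6.24 and 6.395), so that AD32 replicate 3, both discodermolide arrays and A549 DMSO replicate 1 lay close together. The arrays with low RAD54B in A549 were those with low cell cycle genes, and the part of cell cycle state in its level was not tested.

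The carbonic anhydrase cluster split by level. CA2, the widely expressed high-activity isoform, was 6.95, 7.00 and 7.41 in AD32, 8.70 on the AD32 4E-BP1 array, 8.96 and 9.68 in A549 in discodermolide, and 9.61, 8.87, 9.43 and 9.50 in A549 in DMSO. The AD32 arrays stood clear of every array of the other groups, and the AD32 mean was 4.69-fold lower than that of A549 in DMSO (7.12 ± 0.25, SD, n = 3, against 9.35 ± 0.33, SD, n = 4). CA13 was 6.34, 6.63 and 5.79 in AD32 and 7.34, 7.62, 7.80 and 7.79 in A549 in DMSO, a 2.61-fold lower mean without overlap. CA1, the abundant isoform of red blood cells, and CA3, a muscle isoform, were low members and did not separate the groups: CA1 ranged from 3.68 to 3.94 in AD32 and from 3.59 to 4.12 in A549 in DMSO, and CA3 from 5.37 to 5.60 and from 5.33 to 5.57.

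CDH17, the liver-intestine cadherin, and RIPK2, the kinase that relays signals from the bacterial sensors NOD1 and NOD2, were the next widest gaps that did not overlap. CDH17 was 8.28, 8.69 and 8.65 in AD32, 10.64 on the AD32 4E-BP1 array, 11.46 and 11.28 in A549 in discodermolide, and 10.12, 10.69, 10.13 and 10.06 in A549 in DMSO. Its AD32 mean was 3.26-fold lower than in A549 in DMSO, and its log2 difference from A549 in discodermolide was -2.83. RIPK2 was 7.02, 7.32 and 8.14 in AD32 and 8.22, 9.24, 9.31 and 9.38 in A549 in DMSO, 2.92-fold lower on average. The gap between AD32 replicate 3 and A549 DMSO replicate 1 was narrow in RIPK2.

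Other members tied to signalling, membranes and protein turnover were lower by smaller amounts. WWP1, a ubiquitin ligase of the NEDD4 family, was even within groups, at 9.07, 8.93 and 8.86 in AD32 and 9.56, 9.40, 9.54 and 9.65 in A549 in DMSO (log2 difference -0.59). The groups also stayed apart for OSGIN2 (1.55-fold lower), for PIP4P2, a phosphoinositide phosphatase (1.96-fold), and for TMEM64 (1.33-fold). CPNE3, a calcium-dependent phospholipid-binding protein, was 8.62, 8.38 and 9.53 in AD32 and 9.24, 10.14, 10.41 and 10.36 in A549 in DMSO. OTUD6B, a deubiquitinase, was 7.45, 7.20 and 7.86 in AD32 and 7.45, 8.50, 9.12 and 9.13 in A549 in DMSO. In both of these genes A549 DMSO replicate 1 fell inside the AD32 range, and the means were 2.29-fold and 2.06-fold lower. GEM, a small GTPase that inhibits voltage-gated calcium channels, and MMP16, a membrane-anchored metalloprotease, also overlapped, with means 1.46-fold and 1.68-fold lower.

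Members that act in RNA processing and in the cilium, and the mitochondrial enzyme DECR1, had lower means in AD32. INTS8, a subunit of the Integrator complex that processes small nuclear RNA, was 7.77, 8.62 and 8.01 in AD32 and 8.60, 9.32, 9.58 and 9.52 in A549 in DMSO (2.17-fold lower). VIRMA, a scaffold of the complex that writes N6-methyladenosine on RNA, was 7.79, 8.74 and 8.48 in AD32 and 8.51, 9.25, 9.47 and 9.38 in A549 in DMSO (1.76-fold lower). In both, AD32 replicate 2 lay above A549 DMSO replicate 1. TMEM67 (meckelin), a ciliary transition zone protein, was 6.19, 7.09 and 6.52 in AD32 and 7.63, 7.76, 8.14 and 7.92 in A549 in DMSO, without overlap (2.40-fold lower). DPY19L4, of a family of C-mannosyltransferases, did not overlap either (2.04-fold lower). RBM12B, an RNA-binding protein, and DECR1, a mitochondrial reductase of unsaturated fatty acid oxidation, overlapped and had small gaps (1.34-fold and 1.21-fold lower).

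PDP1, the phosphatase that activates pyruvate dehydrogenase, was the exception among the 24. It was 8.91, 7.95 and 7.69 in AD32 and 8.05, 7.86, 7.91 and 7.91 in A549 in DMSO, so that its higher mean rested on AD32 replicate 1. ATP6V0D2, a proton pump subunit best known from osteoclasts, was a low member that also had a higher mean in AD32. It was 5.49, 4.27 and 3.51 in AD32 and 3.56, 3.14, 3.23 and 3.26 in A549 in DMSO. AD32 replicates 1 and 2 lay above all 4 A549 DMSO arrays, as did both discodermolide arrays (3.69 and 4.16). The other low members were CNGB3, a cone photoreceptor channel subunit, the calcium-binding proteins CALB1 and NECAB1, and RUNX1T1, a transcriptional corepressor. None of the 7 low members had all AD32 arrays below or all AD32 arrays above the A549 DMSO arrays.

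The edges of the block were read from the gene order of the GRCh38.p14 assembly. Between LRRCC1 and INTS8 lay 7 further measured genes that are not members. RBIS (6.60, 6.85 and 6.97 in AD32, against 6.91, 7.90, 7.57 and 7.57 in A549 in DMSO) and CIBAR1 (6.56, 6.69 and 6.79, against 7.02, 7.33, 7.01 and 7.22) were lower on average in AD32, and CIBAR1 without overlap. The other 5 differed by no more than 0.14 in either direction on the log2 scale, with REXO1L1P at 0.11, PSKH2 at 0.14 and CNBD1 at -0.06. All of these 5 except REXO1L1P were below the low-level limit, so little can be read from their differences. Just before the block, RALYL differed by -0.01 at a low level, SNX16 by -0.31, CHMP4C by 0.00 and ZFAND1 by -0.47. SLC10A5, also at a low level, differed by 0.30. Just after it, CCNE2 (cyclin E2) differed by -1.86, NDUFAF6 by -0.45, TP53INP1 by 0.75, PLEKHF2 by -0.28 and CFAP418 by -0.86, the last without overlap (6.85, 7.04 and 6.70 in AD32, against 7.69, 7.35, 8.01 and 7.86 in A549 in DMSO). The first members inside the edges were LRRCC1 at -3.11 and INTS8 at -1.12. CCNE2 was 4.18, 5.10 and 7.90 in AD32 and 4.71, 8.67, 8.50 and 8.46 in A549 in DMSO, an order like that of the cell cycle genes on the same arrays.

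Low values were not limited to the block. Chromosome 8 genes that were not low had a median log2 difference of -0.37 between AD32 and A549 in DMSO before the block (225 genes, 168 of them below 0) and of -0.16 after it (177 genes, 122 below 0). The median was 0.01 over 11371 such genes of the other autosomes, with 5476 below 0. The block was chosen as the lowest stretch, so that its median of -1.08 has to lie below these and the gap was not tested.

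**Figure D2:**
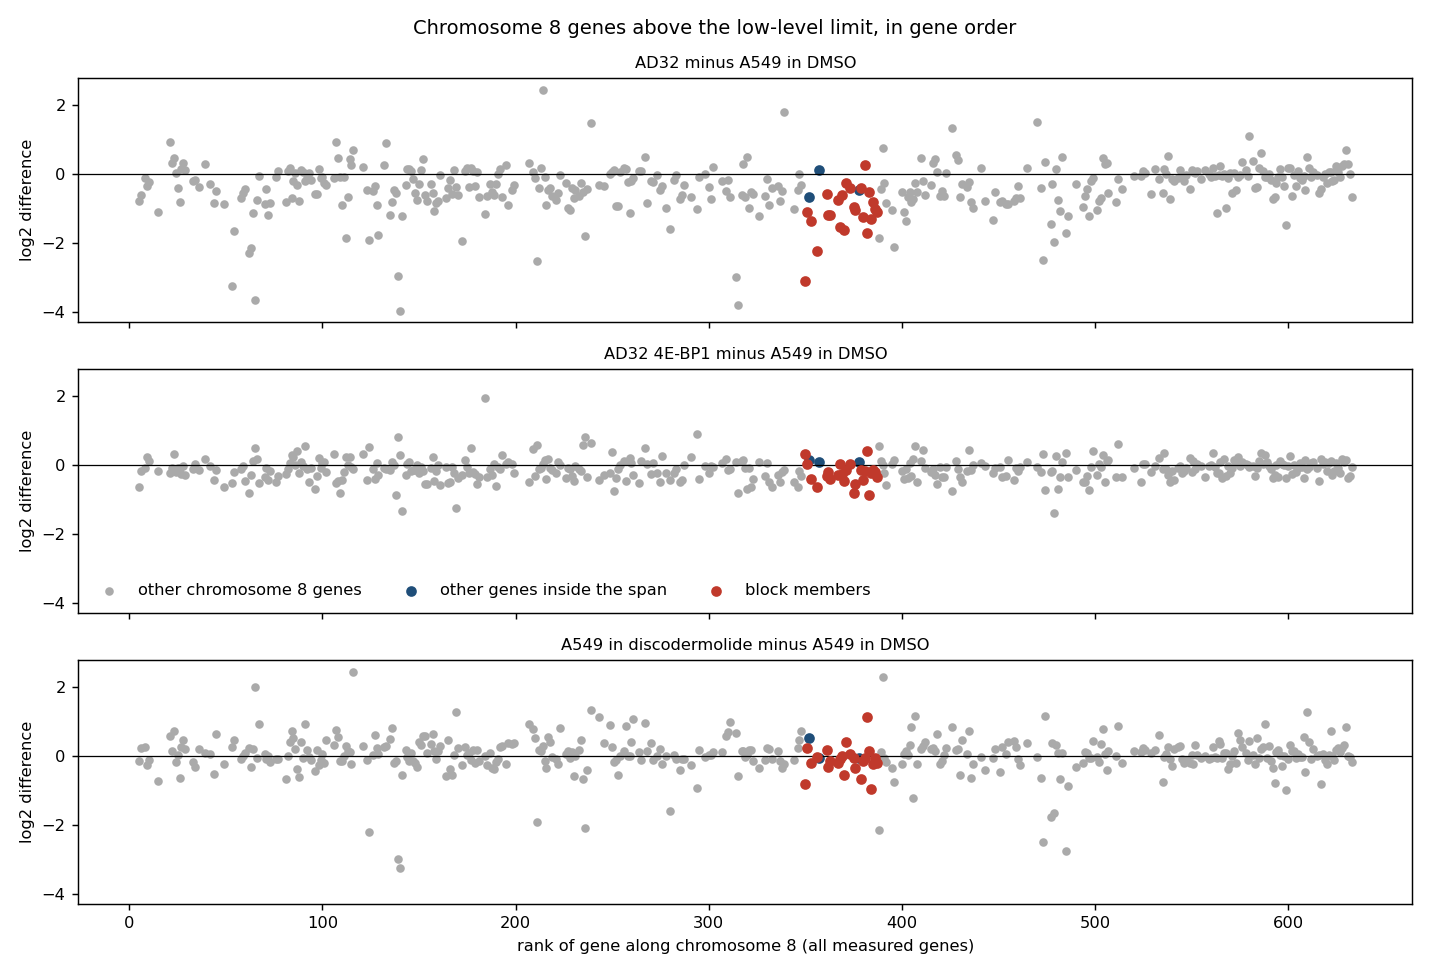
Log2 difference from A549 in DMSO (vertical axis) for chromosome 8 genes above the low-level limit, by rank along the chromosome (horizontal axis), for AD32, AD32 4E-BP1 and A549 in discodermolide, with block members in red and other genes of the span in blue. The members have a median of -1.08 in AD32, -0.26 on the AD32 4E-BP1 array and -0.12 in A549 in discodermolide.

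Cell cycle levels differed between arrays of the same group and are given beside the members' levels. Their part in the members' levels was not tested. A549 DMSO replicate 1, the array of that group with low cell cycle genes, was its lowest array for 18 of the 24 members. Without it, the median difference of AD32 from A549 in DMSO was -1.30. AD32 replicate 3 had a cell cycle mean of 9.62, close to the 9.87 to 10.00 of A549 DMSO replicates 2 to 4, and a member mean of 7.64 against their 8.65 to 8.88. Both discodermolide arrays had low cell cycle means (6.58 and 6.81) and member means of 8.48 and 8.54.

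**Figure D3:**
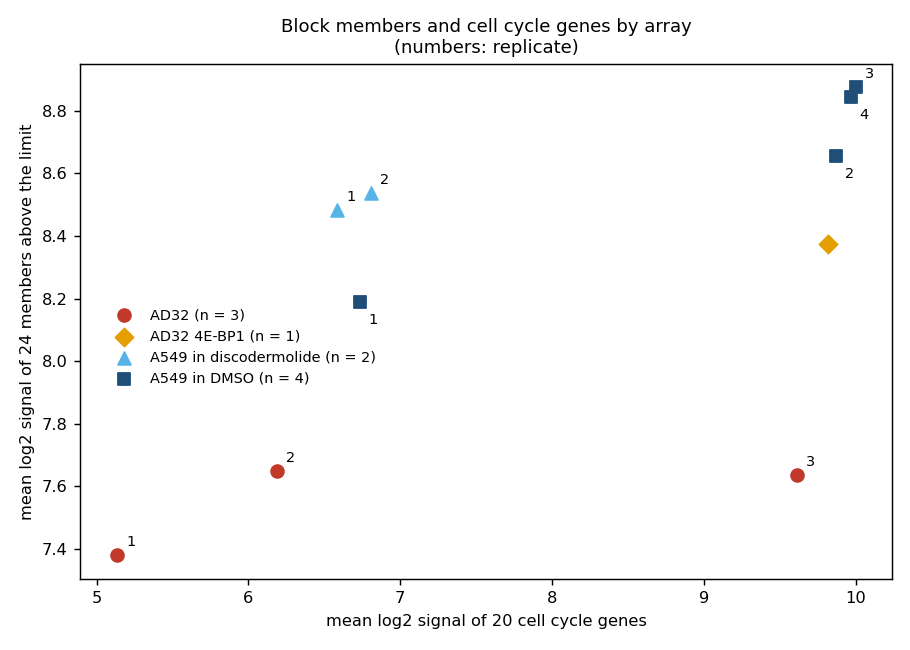
Mean log2 signal of the 24 members above the low-level limit (vertical axis) against that of 20 cell cycle genes (horizontal axis), with a point per array, the replicate number beside it and groups by colour. The 3 AD32 arrays lie at 7.38 to 7.65 on the vertical axis, with cell cycle means of 5.14, 6.19 and 9.62, and the 7 others lie at 8.19 to 8.88.

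The AD32 4E-BP1 array asks whether the low levels are found in a second line that bears the AD32 name. It was set against A549 in discodermolide, because the choice of members used neither group. The AD32 4E-BP1 array was in DMSO and those arrays were in the drug, so line and drug cannot be told apart here either. No member differed detectably: limma called 0 of 31 (0.0328% of all genes were called), and 4 members had an unadjusted p under 0.05, as did 906 of all 18279 genes. The median difference over the 24 members was -0.16, beside -0.03 over all genes that were not low, and 17 of the 24 were below 0. Chromosome 8 genes that were not low had a median of -0.25 before the block (166 of 225 below 0). After the block it was -0.14 (117 of 177 below 0), so the members did not stand apart from their chromosome here. The 4 members were WWP1 (log2 difference -0.50, SE 0.19), PIP4P2 (-0.76, SE 0.28), CDH17 (-0.73, SE 0.30) and GEM (-1.03, SE 0.44), and all 4 had an adjusted p of at least 0.929 from limma. LRRCC1 was 1.15 higher on the AD32 4E-BP1 array. With the lone array, a 2-fold change was not recovered on simulated data, so a 2-fold difference could be missed here.

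Relative to AD32 itself, the single 4E-BP1 array was higher for 22 of the 24 members, with a median log2 difference of 0.78. It lay above all 3 AD32 arrays in 19 of them, as it did for 28.3% of all genes that were not low. AD32 was sampled in the drug and the 4E-BP1 array was not, so line and drug cannot be told apart. Choosing members for low AD32 values favours a difference above 0 in this comparison. The values are therefore a description with no test. The log2 difference was 3.43 for LRRCC1, 2.10 for CDH17, 1.58 for CA2, 1.58 for RIPK2 and 1.17 for NBN. It was below 0 for PDP1 (-0.44) and GEM (-0.34).

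The A549 DMSO arrays took part in the choice of the members, which favours a difference below 0 in any comparison with them. Relative to A549 in DMSO, the AD32 4E-BP1 array had a median difference of -0.26 over the 24 members, with 19 below 0 and 0 of 31 called by limma, as for all genes (0% called). PIP4P2 was the 1 member with an unadjusted p under 0.05, beside 208 of all genes, at 6.46 against 7.22, 6.87, 7.54 and 7.48, close to the AD32 levels of 6.16, 6.35 and 6.41. In 9 of the 24 members the AD32 4E-BP1 array lay below all 4 A549 DMSO arrays, as it did for 1503 of 12186 genes that were not low. On chromosome 8 it did so for 69 of 225 such genes before the block and 43 of 177 after it. In 16 of the 24 members it lay among all 6 A549 arrays, as did 80.1% of all genes that were not low, and in 0 it lay above them. The 9 included the carbonic anhydrase genes CA13 (7.22) and CA2 (8.70), both above every AD32 array. For the 14 members at least 2-fold lower in AD32, the AD32 4E-BP1 array stood at a median of 23.9% of the AD32 difference from A549 in DMSO (from -23.2% to 52.7%). Over the 216 genes called and at least 2-fold lower in AD32, the median was 5.49%. Both figures share their A549 DMSO arrays with the choice of the genes, and the gap between them was not tested.

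**Figure D4:**
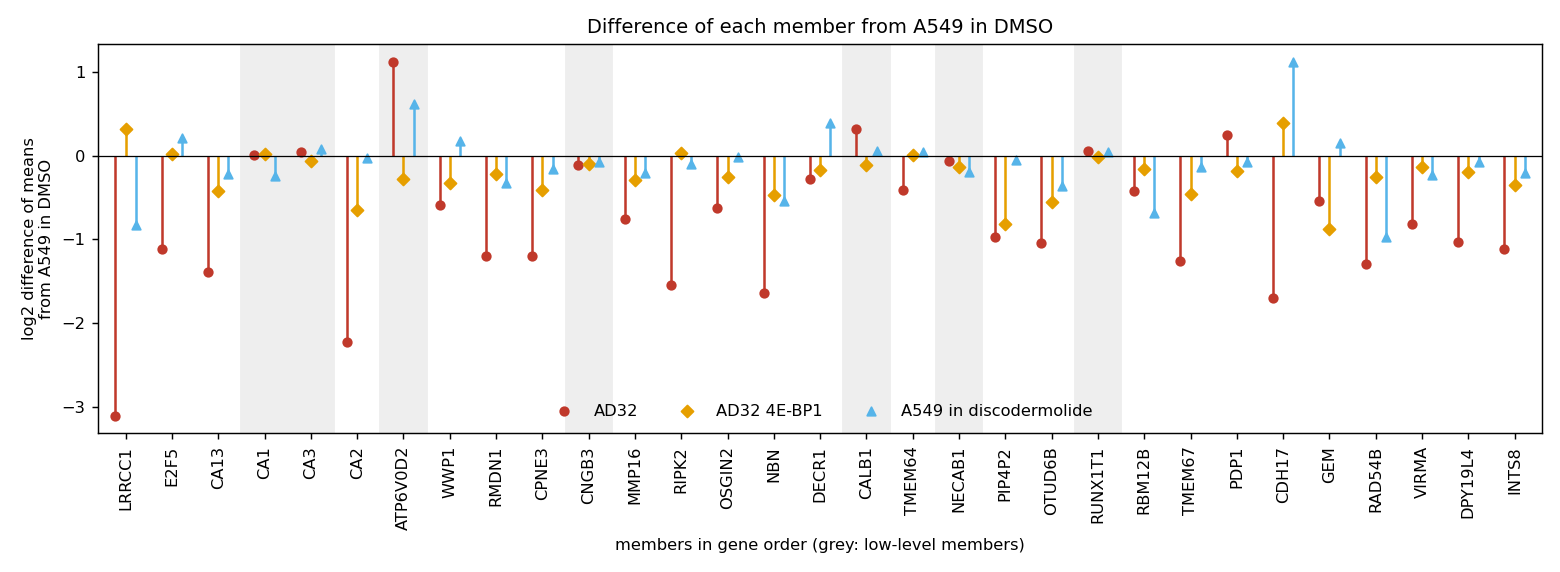
Log2 difference of group means from A549 in DMSO (vertical axis) for each measured member in gene order (horizontal axis), for AD32 (n = 3), AD32 4E-BP1 (n = 1) and A549 in discodermolide (n = 2), with the 7 low members in grey. LRRCC1 stands at -3.11 in AD32 and 0.32 on the AD32 4E-BP1 array, and CDH17 at -1.71 and 0.40, while PIP4P2 stands at -0.97 and -0.82.

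A549 in discodermolide was set against A549 in DMSO to compare the drug with its vehicle in the same line, with the same limit from the choice on the DMSO arrays. The median difference of A549 in discodermolide from A549 in DMSO was -0.12 over the 24 members, beside 0.05 over all genes that were not low, and limma called 0 of 31 members, with 0.372% of all genes called and 2 members at an unadjusted p under 0.05, beside 2033 of all genes. These were CDH17, which was 2.18-fold higher on average with both treated arrays above all 4 DMSO arrays (log2 difference 1.13, SE 0.21, adjusted p = 0.0695 from limma), and RBM12B, at 7.89 and 7.73 against 7.91, 8.63, 8.70 and 8.74 (-0.69, SE 0.28, adjusted p = 0.398). RAD54B (-0.98, SE 0.57) and LRRCC1 (-0.82, SE 0.43) were the lowest differences and lay within the range of the DMSO arrays because of replicate 1. Without A549 DMSO replicate 1, 3 members were called, 1 higher and 2 lower, with no share of all genes given for that fit.

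AD32 and A549 were also set side by side in the same drug concentration, as a description, since AD32 was used in the choice. The median difference of AD32 from A549 in discodermolide was -0.89 over the 24 members. It was -2.83 for CDH17, -2.28 for LRRCC1, -2.20 for CA2, -1.44 for RIPK2 and -1.33 for E2F5. It was smaller than against DMSO for RAD54B (-0.32), and RBM12B stood on the other side of 0 (0.27).

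Partner genes of the members, which lie mostly on other chromosomes, were tested in AD32 against A549 in DMSO. Over 13 lists of complex partners and family members, 6 of 160 measured genes rose and 6 fell by limma, beside 3.52% and 2.19% of all genes. Both counts lay near those shares, so the calls are not read as a result about partners of the members. The lists were drawn up with earlier results of these data known. The partners of NBN and RAD54B in recombination had 0 of 9 called (median log2 difference -0.26), the E2F and retinoblastoma family 0 of 12 (-0.35), the N6-methyladenosine writer complex of VIRMA 0 of 7 (0.00), the other Integrator subunits 0 of 13 (-0.22), the ciliary transition zone 0 of 16 (0.00) and the corepressor partners of RUNX1T1 0 of 9 (0.12). The count of partner genes called was 23 without AD32 replicate 3, 25 without A549 DMSO replicate 1, and 6 without AD32 replicate 1 or 2 or A549 DMSO replicate 3 or 4. Without either discodermolide array it was 7. No share of all genes is given for these fits, so whether the counts exceed it cannot be told.

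Among the called partners, TNFAIP3 (A20), which restrains signalling by RIPK2 and related kinases, was 7.38, 7.70 and 7.56 in AD32 and 5.43, 5.79, 5.43 and 5.46 in A549 in DMSO. It rose 4.06-fold (adjusted p = 0.000138; log2 SE 0.16). TAB3, an adaptor of the kinase TAK1 downstream of RIPK2, rose 1.71-fold (adjusted p = 0.00754 from limma), and the other 8 of 10 genes in the NOD list were not called. TAB3 was 7.96, 8.20 and 8.24 in AD32 and 7.33, 7.37, 7.40 and 7.34 in A549 in DMSO. In A549 in discodermolide, TNFAIP3 was 6.44 and 6.85 and TAB3 7.93 and 8.16, all above every A549 DMSO array. NEDD4L, a ubiquitin ligase related to WWP1, was 9.52, 9.95 and 9.34 in AD32 and 7.87, 8.53, 8.38 and 8.36 in A549 in DMSO (2.49-fold higher, adjusted p = 0.00618), as 1 of 10 ligase genes called. CPNE4, a copine like CPNE3, rose 3.58-fold and RMDN3, a relative of RMDN1, 1.80-fold, while DPY19L3 fell 2.04-fold. Their adjusted p from limma was 0.000289, 0.0134 and 0.0392. CPNE4 was at a low level in A549 in DMSO (4.11, 4.07, 4.37 and 4.37), where signal above background was not shown, and 6.27, 6.16 and 5.78 in AD32. In the paralogue list 3 of 30 genes rose and 2 fell. RMDN3 lost its call without AD32 replicate 1 or 2 and with the replicate number as a block (adjusted p up to 0.0594, and 0.0528 with the block).

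The falls among partners included CA12, a membrane-bound carbonic anhydrase (8.24, 7.91 and 9.66 in AD32, against 10.18, 10.03, 10.07 and 10.10 in A549 in DMSO), at 2.82-fold and as 1 of 9 carbonic anhydrases outside the block. PDK1, the kinase that opposes PDP1 at pyruvate dehydrogenase, fell 2.40-fold as 1 of 10. HADHA, of mitochondrial fatty acid oxidation like DECR1, fell 1.99-fold as 1 of 14. ZEB1, a repressor of epithelial genes in the list of epithelial splicing genes drawn up around ESRP1, fell 2.07-fold as 1 of 11. Their adjusted p from limma was 0.0403, 0.0434, 0.0149 and 0.0114. In A549 in discodermolide, CA12 was 10.48 and 10.46, PDK1 7.59 and 7.65, HADHA 10.82 and 10.61, and ZEB1 7.65 and 7.76. The calls of CA12, PDK1 and DPY19L3 ended when either AD32 replicate 1 or 2 or any of A549 DMSO replicates 2 to 4 or either discodermolide array was left out, with the compared groups alone and with A549 DMSO replicates 3 and 4 averaged (adjusted p up to 0.148, 0.16 and 0.113 over all alternatives). Those of CA12 and PDK1 also ended with the replicate number as a block. That of HADHA ended without A549 DMSO replicate 3 or 4, or with these averaged (up to 0.0557).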

How the data were processed

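RNA of 10 samples was hybridised to 1 Affymetrix array each. The deposited log2 values, a scale read from their spread, came from Affymetrix Expression Console according to the submitters' processing notes. The sources used here give no version, summarisation or normalization. Array medians lay between 6.50 and 6.63. The number of arrays limits the precision. The labels speak of biological replicates without saying how they were grown apart, so p-values measure the spread between these samples.

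The platform annotation gave 1 gene for 19262 of 24308 probe sets, several for 1720 and none for 3326. Of 18279 genes, the probe set with the highest mean was used. Members were matched by symbol, older aliases accepted. Gene order came from the GRCh38.p14 gene table.

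Tests used limma 3.58.1 in R 4.3.3 (lmFit, eBayes) over all 10 arrays in 4 groups with 6 residual degrees of freedom, with two-sided p-values adjusted by Benjamini and Hochberg across every gene, at a threshold of 0.05. The lone AD32 4E-BP1 array was taken to vary as much as the replicated groups. On simulated data with 200 of 18279 genes changed by 1 on the log2 scale, 52.5% were recovered for AD32 against A549 in DMSO and 0% for AD32 4E-BP1 against A549 in discodermolide, and by 2, 90% and 72%. Partner genes were listed from known complexes and families. Named genes comprised all members, the 5 nearest measured genes on each side, marker genes, EIF4EBP1 and up to 3 called genes per list with the smallest p. The members and lists were chosen with earlier results of these data known. Alternatives tried were median centring, a second quantile normalization, leaving out genes below 5.78, array weights, a trended robust prior, averaged probe sets per gene, the compared groups alone, each replicate left out, A549 DMSO replicates 3 and 4 averaged, and the replicate number as a block.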

Additional observations from a re-analysis of the deposited data

Results flagged for a closer look

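Within the 4 A549 DMSO arrays, an array lay far from the other 3 for 6 of 31 members tested. The rule would flag about 1 in 20 by chance if genes varied independently, but the members share these arrays. No share over all genes is given, so the count is not a result about the members. Across all genes, A549 DMSO replicate 1 correlated at r = 0.954, 0.948 and 0.951 with replicates 2 to 4, which correlated at 0.990 to 0.997 with each other. A549 DMSO replicate 1 was the far array for LRRCC1 (6.91), E2F5 (7.91), RIPK2 (8.22), RBM12B (7.91) and RAD54B (5.73), and was the low one each time. Its cell cycle mean was 6.73, against 9.87 to 10.00 on the other 3 arrays, and the part of cell cycle state in these values was not tested. For CDH17, A549 DMSO replicate 2 was the far array, at 10.69 against 10.06 to 10.13.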

How the results depend on the processing

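The median difference over the 24 members that were not low moved by less than the replicate spread under every alternative. It ran from -1.30 to -0.94 for AD32 against A549 in DMSO, from -1.004 to -0.76 for AD32 against A549 in discodermolide, from 0.59 to 0.88 for AD32 4E-BP1 against AD32, from -0.41 to -0.20 for AD32 4E-BP1 against A549 in DMSO, from -0.18 to -0.15 for AD32 4E-BP1 against A549 in discodermolide and from -0.29 to 0.06 for A549 in discodermolide against DMSO. No calls of members are given for AD32 4E-BP1 against AD32, because the members were chosen on the AD32 arrays. In the fit of all arrays, 0 members were called for A549 in discodermolide against DMSO, and 12 of 160 partner genes. Array weights gave 7 such members (1 higher, 6 lower) and 49 partner genes. With the compared groups alone these counts were 0 and 7. The absence of calls for AD32 4E-BP1 against A549 in discodermolide did not hold under either of these 2 alternatives. Averaging A549 DMSO replicates 3 and 4, which correlated at r = 0.997, gave 6 partner genes called. Leaving out single arrays gave 0 to 3 members called for A549 in discodermolide against DMSO, and 6 to 25 partner genes. The shares of all genes given above are those of the fit of all arrays. No such share is given for the alternatives, so whether their counts exceed it cannot be told. The cause of the changed counts was not tested. For AD32 4E-BP1 against A549 in DMSO, 0 members were called under all 17 alternatives.

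Same-numbered AD32 and A549 DMSO arrays deviated together for numbers 1 and 3 (r = 0.677 and 0.411) but not for number 2 (-0.26), so the numbers were not taken to pair the samples. With the replicate number as a block, the AD32 median was -0.99 against A549 in DMSO and -1.004 against A549 in discodermolide, that of A549 in discodermolide against DMSO was 0.06, and 9 partner genes were called. No block could be fitted for the AD32 4E-BP1 array, whose label carries no number. The arrays carry no background estimate, which limits what can be read from the 7 low members.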

Other observations

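EIF4EBP1 lies on the other arm of chromosome 8, and its neighbours give a second stretch of the chromosome to set beside the block. Of its 10 nearest measured genes on each side, 16 were not low. Their median log2 difference from A549 in DMSO was -0.29 in AD32, with 9 of 16 below 0 and values from -0.69 to 0.18, and -0.18 on the AD32 4E-BP1 array. The corresponding medians over the 24 members of the 8q21-q22 block were -1.08 and -0.26. The gap between the stretches was not tested.

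MMP16 was the member with more than 1 probe set. The probe set not used above gave 5.38, 6.65 and 4.96 in AD32 and 6.22, 6.65, 6.79 and 6.72 in A549 in DMSO, and the one used gave 5.88, 6.66 and 5.41 against 6.54, 6.76, 6.83 and 6.82. In both, AD32 replicates 1 and 3 were below every A549 DMSO array and replicate 2 was not.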
